A study of Mus musculus with 16 samples.

Results

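The contacts described here join a captured promoter fragment on one chromosome to a fragment on a different chromosome. They were taken from a table of promoter contacts in mouse embryonic stem cells as every row whose bait and other end lie on different chromosomes. Chromosomes X and Y and the chromosome pairs 6 and 8, 7 and 17, and 5 and 16 were left out. This gave 2559 of the 260860 contacts listed, or 0.981%, and 77.7% of the 3293 interchromosomal contacts. They start from 1019 bait fragments, reach 1492 other-end fragments, and cover 157 of the 168 possible pairs of autosomes plus 1 pair of chromosome 4 with the mitochondrial genome.

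Cells were profiled on day 0 as embryonic stem cells (ESC) grown in 2i/Lif, a medium with kinase inhibitors and leukaemia inhibitory factor, and on day 2 as epiblast-like cells (EpiLC). DNMT_KO lacks Dnmt1, Dnmt3a and Dnmt3b and derives from DNMT_WT, and TET_KO lacks Tet1, Tet2 and Tet3 and derives from TET_WT, so both wild types carry all these genes. Each genotype is 1 cell line, so genotype cannot be told apart from line. The labels list 2 samples for each of the 8 combinations of line and stage, 16 in all, but the table holds 1 score column per combination, so no spread within a combination is known and the depth behind a score is unknown. No RNA or protein was used here, so cell identity and the knock-outs could not be checked in these files.

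In promoter-capture Hi-C, chromatin is crosslinked, cut with the restriction enzyme HindIII and ligated, and the fragments that carry gene promoters (baits) are pulled out with RNA probes together with whatever they were ligated to (other ends). Contacts within a chromosome become rarer with distance along it, whereas contacts between chromosomes have no such distance. Whether a contact counts as interchromosomal depends on where the reference assembly places its fragments. DNMT enzymes write cytosine methylation at CpG sites and TET enzymes oxidise it, and both processes are active when naive stem cells move towards the epiblast state. The score is that of CHiCAGO, a program that weighs a contact's reads against an expected background. A contact was counted as called at a score of 5 or more, and a missing score counted as not called.

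Promoters of 4 baits that recur below are printed from RefSeq (GRCm38.p6) as 250 bases before to 50 bases after the start of the gene, 5′ to 3′ on the gene's strand. They are the spindle checkpoint gene Mad2l1 and the calcium-binding protein gene Efhd2, whose fragments hold 84 and 74 of the contacts, the centromere histone chaperone gene Hjurp, which recurs among the contacts that separate a knock-out from its wild type, and the testis-specific linker histone gene H1f6, listed in the table as Hist1h1t. Capitals mark each CG dinucleotide, the site of methylation, which reads the same on both strands. The windows are chr6:66534971-66535270 (plus strand) for Mad2l1, chr4:141874871-141875170 (minus strand) for Efhd2, chr1:88277530-88277829 (minus strand) for Hjurp and chr13:23695561-23695860 (plus strand) for H1f6.
Mad2l1: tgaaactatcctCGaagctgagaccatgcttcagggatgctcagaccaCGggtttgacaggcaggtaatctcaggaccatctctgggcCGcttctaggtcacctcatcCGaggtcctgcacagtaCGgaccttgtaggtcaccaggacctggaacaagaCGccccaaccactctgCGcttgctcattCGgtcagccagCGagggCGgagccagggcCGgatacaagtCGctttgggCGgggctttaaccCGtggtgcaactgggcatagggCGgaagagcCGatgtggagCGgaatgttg
Efhd2: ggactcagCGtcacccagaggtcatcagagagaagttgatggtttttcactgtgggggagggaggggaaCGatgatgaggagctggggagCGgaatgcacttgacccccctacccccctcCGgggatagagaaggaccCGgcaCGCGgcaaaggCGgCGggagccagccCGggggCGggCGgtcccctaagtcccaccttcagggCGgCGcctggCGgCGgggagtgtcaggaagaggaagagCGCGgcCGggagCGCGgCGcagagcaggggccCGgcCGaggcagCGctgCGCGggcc
Hjurp: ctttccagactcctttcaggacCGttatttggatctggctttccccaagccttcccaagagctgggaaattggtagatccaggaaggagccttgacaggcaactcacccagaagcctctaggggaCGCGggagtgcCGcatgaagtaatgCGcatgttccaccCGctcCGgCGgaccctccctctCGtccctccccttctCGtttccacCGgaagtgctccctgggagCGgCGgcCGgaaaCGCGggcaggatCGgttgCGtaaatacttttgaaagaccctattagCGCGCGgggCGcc
H1f6: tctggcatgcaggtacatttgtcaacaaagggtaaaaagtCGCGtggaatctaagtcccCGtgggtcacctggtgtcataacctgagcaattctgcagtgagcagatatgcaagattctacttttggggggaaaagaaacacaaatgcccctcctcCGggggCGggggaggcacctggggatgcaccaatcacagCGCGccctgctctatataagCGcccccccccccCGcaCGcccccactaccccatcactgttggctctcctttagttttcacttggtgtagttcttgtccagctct
The Efhd2 window holds 27 CG dinucleotides, Hjurp 22, Mad2l1 17 and H1f6 10. Of 32851 mouse promoter windows of this length, 94.6% hold at least 1 CG, with a median of 7, and 15.5% hold at least as many as Efhd2. A window lay inside the fragment of 600 of the 1019 baits, where the richest window per bait had a median of 12 CG. The median was 17 over 11369 baits with none of the contacts described here. These are counts of letters and say nothing of methylation in these cells.

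Few of the contacts were shared by all columns. Of the 2559 contacts, 1335 (52.2%) were called in 1 column, against 43.9% of the 257567 contacts within a chromosome (cis contacts), and 93 (3.63%) were called in all 8, against 6.75% of cis contacts. A score was missing in at least 1 column for 1929 of them (75.4%), against 4.93% of cis contacts and 45.4% of the 19406 cis contacts that span over 1 Mb. All 8 scores were present for 630. The highest score lay under 5.5 for 122 contacts, and the mean score over the columns that had one was above 100 for 56.

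Called interchromosomal contacts differed from called cis contacts in each of the 8 columns. Their median score was higher, 14.3 against 6.48 on average over columns, and fewer had a captured promoter at both ends, 3.60% against 10.9%. A larger share was called in no other column, 23.0% against 15.7%, and the other-end fragment was shorter, with a median of 1751 against 1926 bases. Each difference had the same sign in 8 of 8 columns and an exact two-sided sign-flip permutation p of 0.0078125, the smallest that 8 columns allow, and the same after Benjamini-Hochberg adjustment over the 4 properties. The columns share fragments and come from related lines, so they are not fully independent. Against cis contacts over 1 Mb the share called in no other column turned around, at 23.0% against 35.9% (difference -12.9 points, exact p = 0.03125), and at a score of 10 or more it differed by 4.03 points (exact p = 0.21875).

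The contacts were concentrated in blocks, pairs of regions on 2 chromosomes that many contacts join. Contacts were chained when both their ends lay within 2 Mb, and 42 chains of at least 10 contacts held 1616 of them (63.1%). In 37 blocks 1 side consisted of at most 3 fragments, called the narrow side here, and the other is called the wide side. The median span was 4.57 kb on the narrow side and 799.98 kb on the wide side. Block 30 was an exception in span, as its 3 fragments spread over 590.7 kb and the other side over 5.38 kb. The narrow side consisted of other ends only in 20 of these 37 blocks and of baits only in 11. Among the 20, the narrow side overlapped a RefSeq gene in 15, and a median of 11 baits of the other chromosome reached it. This description by the number of fragments was chosen after the blocks were seen.

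**Figure D1:**
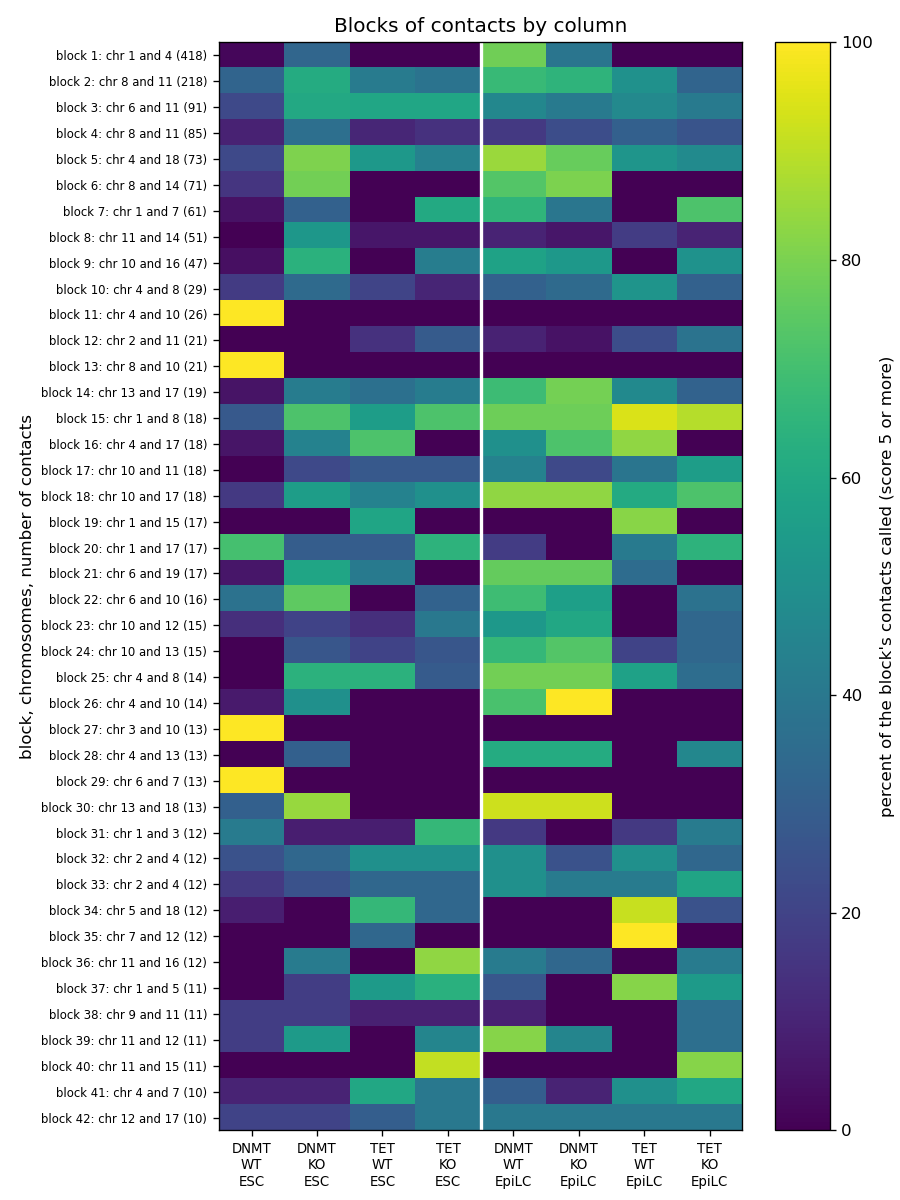
Each row is 1 of the 42 blocks with its chromosomes and number of contacts, each column 1 line and stage, and the colour is the percent of the block's contacts with a score of 5 or more. Blocks 11, 13, 27 and 29 are bright in the DNMT_WT ESC column only, block 40 in the 2 TET_KO columns only, and block 1 is dark in all 4 TET columns. A contact without a score counts as not called, so dark can mean unscored.

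The largest block joined chr4:141087390-142168789 with chr1:74894232-78702499. It held 418 contacts from 28 baits on both chromosomes. On chromosome 4 the leading baits were Efhd2 (74 contacts) and the pancreatic protease genes Ctrc (48) and Cela2a (41), with Spen (10), a transcriptional corepressor known from X inactivation. On chromosome 1 they included the small nuclear RNA copy U1.67 (28) and Pax3 (17), a transcription factor of neural crest and muscle. DNMT_WT had 7 of its contacts called in ESC and 328 in EpiLC, and DNMT_KO 138 and 162. It was 0 in each of the 4 TET columns, where between 416 and 418 of the 418 contacts had no score. The bait U1.67 with chr4:141562762-141565478 scored 0 and 83.0 in DNMT_WT ESC and EpiLC, 33.1 and 36.1 in DNMT_KO ESC and EpiLC, and had no score in the TET lines. The block was therefore seen in both DNMT lines and at either stage of DNMT_KO, and its low count stood in DNMT_WT ESC.

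The next block rested on 1 bait. The fragment chr11:69329193-69341496, listed as Gm16040 and overlapping the potassium channel subunit gene Kcnab3 and the RING finger gene Rnf227 in RefSeq, contacted 218 fragments of chr8:92321273-94273291, a region with the carboxylesterase cluster Ces1a to Ces1h. Its contacts called numbered 70, 134, 91 and 83 in the ESC columns of DNMT_WT, DNMT_KO, TET_WT and TET_KO, and 147, 142, 110 and 70 in their EpiLC columns. Scores were highest at chr8:93383064-93384393, with 448, 904, 500 and 349 in ESC and 487, 515, 358 and 238 in EpiLC in the same order. All 8 columns were far above the threshold, and the stages overlapped.

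Scores fell away on both sides of that fragment. The 24 other ends within 50 kb had a median mean score of 102.5, the 56 at 50 to 200 kb of 14.98, the 119 at 200 to 500 kb of 2.98 and the 19 beyond 500 kb of 1.59. Within 50 kb all 24 were called in 7 columns and 23 in TET_KO ESC. At 200 to 500 kb the count called ranged from 17 in TET_KO EpiLC to 69 in DNMT_WT EpiLC. The column medians within 50 kb ran from 59.98 in TET_KO EpiLC to 160.9 in DNMT_KO EpiLC.

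Mad2l1 showed the same shape. Its fragment chr6:66534905-66540307 contacted 84 fragments of a region of chromosome 11 around the immune receptor genes Havcr1, Havcr2 and Timd4, and with baits of that region the block held 91 contacts. Median mean scores were 44.3 for the 20 fragments within 50 kb of the strongest, 8.48 for 26 at 50 to 200 kb and 2.61 for 35 at 200 to 500 kb. The block's contacts called numbered 20 in DNMT_WT ESC and between 37 and 55 in the other 7 columns. Gm7235 on chromosome 7, with 60 contacts on chr1:180134162-180778770 around the presenilin gene Psen2, fell from a median of 26.7 within 50 kb to 2.16 at 200 to 500 kb. None of its contacts had a score in TET_WT.

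**Figure D2:**
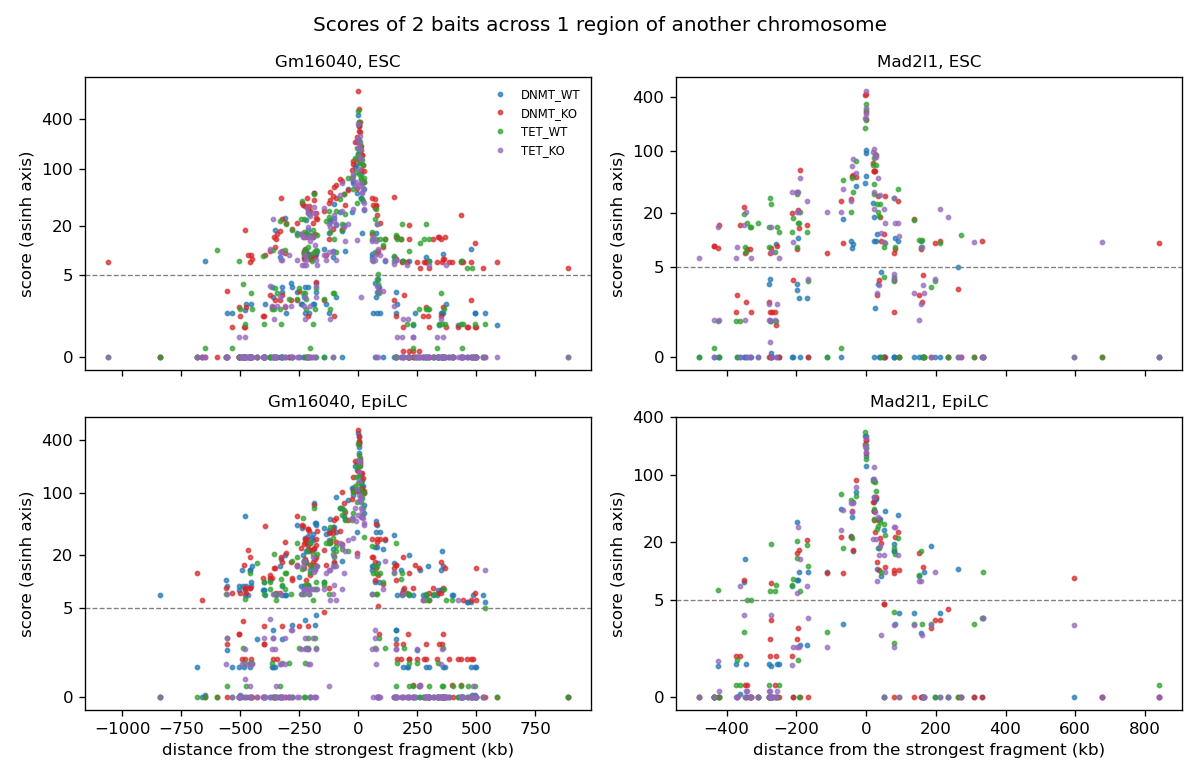
Each point is the score of 1 contact in 1 line (colour) against the distance in kb of its other end from the bait's strongest other end, on an asinh axis with the score of 5 dashed. Distance 0 is the other end with the highest mean score, and in every column scores are high within a few kb of it and mostly lower beyond 200 kb.

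A pair of neighbouring baits near the start of chromosome 11 reached many chromosomes. Sfi1, which encodes a centrin-binding spindle protein, had 131 contacts on 13 other chromosomes, and Gm11399, whose fragment chr11:3139559-3156796 also overlaps Sfi1 in RefSeq, had 119 on 14. Of the other ends, 83 (63.4%) of Sfi1's and 89 (74.8%) of Gm11399's lay in the first 10 Mb of their chromosome, the end nearest the centromere in the mouse. Blocks 4, 8, 12, 17 and 38 join these baits to chromosomes 8, 14, 2, 10 and 9. Both baits scored high with chr9:122844777-122845262, where Sfi1 had 429, 45.6, 557 and 728 in the ESC columns of DNMT_WT, DNMT_KO, TET_WT and TET_KO and 0, 53.3, 530 and 267 in their EpiLC columns. The TET columns were all at 266.6 or more there, and the DNMT columns ran from 0 to 429. Gm11399 with chr5:32731269-32734115 went the other way, with 208, 1029, 6.13 and 0 in ESC and 531, 588, 0 and 0 in EpiLC. Its DNMT columns were all at 208 or more and its TET columns all at 6.13 or less. Together with Gm16040 and Mad2l1 these baits hold 552 of the 2559 contacts (21.6%).

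Both ends lay in the first 10 Mb of their chromosomes for 232 contacts (9.07%), against 4.98% of cis contacts, whose ends lie on 1 chromosome, but Gm11399 and Sfi1 gave 89 and 83 of them. Without these baits, a subset chosen after the data were seen, it was 60 of 2309 contacts (2.60%). Both ends lay in the last 5 Mb for 4 contacts (0.156%, against 4.29% of cis contacts). Chromosomes 12, 15, 16, 18 and 19 carry ribosomal RNA gene arrays in mouse strains, and 19 contacts (0.742%, against 16.4% of cis contacts) joined chromosomes among these. The ends of a cis contact share 1 chromosome, so they tend to meet such a condition together. The cis shares for both ends therefore show neither a lack nor an excess. The other end alone lay in the first 10 Mb for 15.6% of the contacts, 9.79% without Sfi1 and Gm11399, and 5.47% of cis contacts. It lay in the last 5 Mb for 2.97%, 3.20% and 4.69%, in the same order. These shares were not tested.

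In another group of blocks, many promoters of 1 region met the same 1 to 3 fragments of a gene elsewhere. In block 5, 34 baits at chr4:155447641-156241375 contacted 3 fragments of Matr3, an RNA-binding nuclear matrix protein gene on chromosome 18. Its 73 contacts were called 16, 59, 39 and 32 times in ESC and 62, 56, 38 and 35 times in EpiLC, in the order DNMT_WT, DNMT_KO, TET_WT, TET_KO. The bait of the microRNA gene Mir429, a member of the miR-200 family, scored 0, 41.98, 5.31 and 10.6 with 1 of these fragments in ESC and 85.9, 66.6, 13.9 and 28.3 in EpiLC. In each line the EpiLC score was the higher, but the stages overlapped and the contact did not pass the stage test (limma, adjusted p = 0.101).

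Similar narrow targets lay in Zfp617 (block 15, from 13 baits on chromosome 1), the poly(A)-binding protein partner gene Paip1 and Ccdc162 (blocks 14 and 18, from 12 and 11 baits of chromosome 17), and the transcription factor gene Atf2 (block 32, from 12 baits of chromosome 4). Contacts of all 4 lines were called in each of these. In block 23 the translation factor gene Eif5 met a region of chromosome 10 that includes the DNA repair glycosylase gene Tdg, which acts downstream of TET enzymes. Tdg with Eif5 scored 8.65 in DNMT_WT EpiLC, 9.08 in DNMT_KO EpiLC and 9.40 in TET_KO EpiLC, and 0 in DNMT_WT ESC and 2.48 in TET_KO ESC, with no score in the other 3 columns.

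Many blocks appeared in some lines and not in others. Contacts were called in all 4 lines in 22 of the 42 blocks, and in all 8 columns in 12. TET_WT lacked a call in 15 blocks, TET_KO in 12, DNMT_KO in 8 and DNMT_WT in 3. In each of these the line had no score for most of the block's contacts, rather than a low score. Over single contacts, 1051 had a score in all 4 lines, 569 in the DNMT lines only and 94 in the TET lines only. Of these, 493 of the 569 and 10 of the 94 lay in blocks, so outside the blocks the counts were 76 and 84. These classes were set after the data were seen.

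Block 6 was called in the DNMT lines alone. It joined 25 baits at chr14:50236411-52392571, a region of odorant receptor and ribonuclease genes, to 5 fragments of Hmgxb4 on chromosome 8. Of its 71 contacts, DNMT_WT had 11 called in ESC and 52 in EpiLC, and DNMT_KO 56 and 57. The odorant receptor bait Olfr750 with chr8:75030393-75031445 scored 21.4 and 112 in DNMT_WT ESC and EpiLC and 90.4 and 85.1 in DNMT_KO. Neither TET line had a score for it.

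Block 9, of 26 baits on chromosome 16 and 2 fragments of chromosome 10, and block 7, of Gm7235, had calls in the DNMT lines and TET_KO and none in TET_WT. Blocks 16, with the splicing factor gene Srsf7, and 21, with Atrnl1, had none in TET_KO. In these 4 blocks all or nearly all contacts had no score in the line without a call. The odorant receptor gene Olfr1404 and the IgE receptor gene Fcer1a met Chrac1, a chromatin accessibility factor gene on chromosome 15, in TET_WT alone (block 19, called 10 times in ESC and 14 in EpiLC of 17 contacts). Block 35 was also called in TET_WT alone, with 4 and 12 of 12 contacts, among them the zinc-finger gene Zfp324 with 1 fragment of 212 bases on chromosome 12. Zfp324 scored 17.2 there in ESC and 152 in EpiLC. Block 40 was called in TET_KO alone, with 10 of 11 contacts in ESC and 9 in EpiLC. It joined Fam118a, the Wnt ligand gene Wnt7b and the microRNA gene Mir1249 to 1 fragment of Ccdc117 on chromosome 11, and Mir1249 scored 42.1 in ESC and 73.4 in EpiLC.

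There were also 4 blocks, with 73 contacts, that were called in the DNMT_WT ESC column and in no other. All of their contacts were called in that column. Gm12679 on chromosome 4 gave 25 of the 26 contacts of a block with chromosome 10. The epithelial splicing regulator gene Esrp2 gave 20 of the 21 of another block with chromosome 10. The chitinase gene Chia gave 9 of the 13 of a block with a region around the synaptotagmin gene Syt1. The phospholipase gene Pla2g4c met the neuronal adhesion gene Cntn4 (13). Esrp2 with chr10:58212577-58212890 had the highest mean of all 2559 contacts, a score of 504, and no score in the other 7 columns. The EpiLC column of the same line had no call in these 4 blocks. In all of the other 7 columns, all or nearly all of their contacts had no score.

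The same column had few interchromosomal calls elsewhere, although its calls over all contacts numbered 87554, close to the 87991 of DNMT_WT EpiLC. It had 452 interchromosomal contacts called (0.516% of its calls), against 1123 (1.28%) in DNMT_WT EpiLC, and 1135 listed at a score of 0, against 504 to 666 in the other 7 columns. DNMT_WT ESC and EpiLC shared 214 called contacts, which are 47.3% of the first and 19.06% of the second. Between the stages of DNMT_KO 548 were shared (59.6% and 59.2%), of TET_WT 350 (60.2% and 52.1%) and of TET_KO 347 (55.4% and 57.9%). DNMT_WT EpiLC shared 606 with DNMT_KO EpiLC, or 54.0% and 65.5%. As a percent of contacts called in either column, the overlap between columns of different origin had a median of 22.5%, between a wild type and its own knock-out 28.2%, and between stages of a line 39.1%, with 15.7% for DNMT_WT. Columns differ in their number of calls, and the spread of these percentages over pairs was not tested. The part played by depth, sample handling or the way the samples were combined was not tested, since none of these is given per column.

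Between stages, the number of contacts called was not shown to differ. The wild types had 452 (DNMT_WT) and 581 (TET_WT) in ESC and 1123 and 672 in EpiLC. The knock-outs had 919 (DNMT_KO) and 626 (TET_KO) in ESC and 925 and 599 in EpiLC. The means were 644.5 and 829.75, a difference of 185.25 with an exact two-sided permutation p of 0.2286 over 70 splits of the columns. EpiLC was higher in 3 of 4 lines, and most of the difference stood in DNMT_WT. Without that line it was 23.3 (exact p = 0.7, where 0.1 is the smallest possible), and without the block of chromosomes 1 and 4, an alternative added after seeing the data, it was 99 (exact p = 0.286). Outside the blocks the columns had 183, 226, 258 and 248 in ESC and 211, 218, 275 and 205 in EpiLC, a difference of -1.5 (exact p = 0.971).

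**Figure D3:**
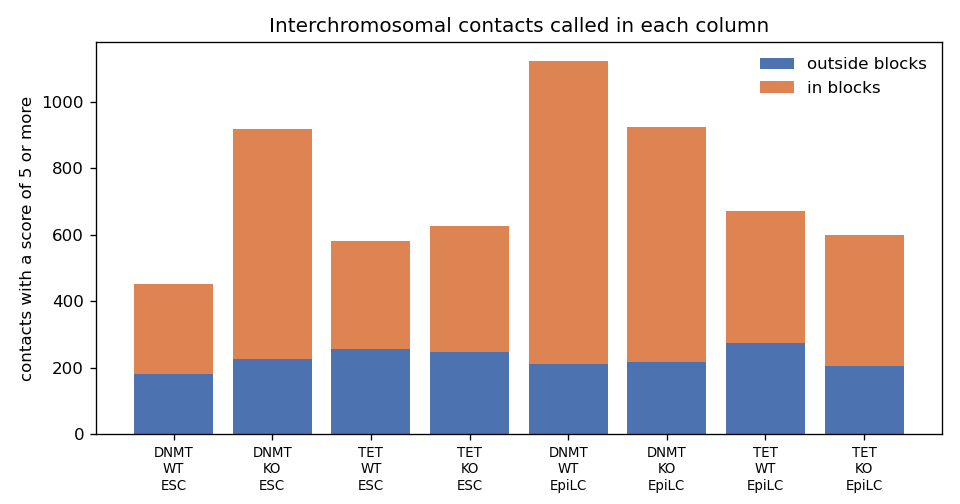
Bars give the number of interchromosomal contacts with a score of 5 or more in each of the 8 columns, stacked by whether the contact lies in 1 of the 42 blocks. The part outside blocks runs from 183 to 275, and the part in blocks from 269 to 912.

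Single contacts were tested between stages with limma on asinh scores, quantile-normalised between columns, with the line as a block, over 245516 contacts that had all 8 scores. Of the 630 interchromosomal contacts among them, 20 (3.17%) passed an adjusted p of 0.05, 17 higher and 3 lower in EpiLC, where 0.205% of all contacts tested passed (0.138% higher, 0.0672% lower). The median difference was 0.22 asinh units for the 630 and -0.01 over all contacts, and without DNMT_WT it was -0.07 for the 630. In 15 of the 630 all EpiLC scores lay above all ESC scores, against 4.85% of all contacts, and in 2 all lay below, against 3.78%. With 1 line left out, 2 of the 630 passed without DNMT_WT, 1 without TET_WT, and 0 without DNMT_KO or TET_KO, although 172 and 178 then had an unadjusted p under 0.05. Few contacts passed in these fits over the whole table: 5 higher and 5 lower without DNMT_WT, 3 higher and 2 lower without TET_WT, and 0 without DNMT_KO or TET_KO, of 245516.

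The contacts past the test that did not overlap between stages were 6 higher and 2 lower in EpiLC. 4930444G20Rik with chromosome 6 scored 0 in all 4 ESC columns and 5.23, 24.0, 5.17 and 5.39 in EpiLC (difference 2.73 asinh units, SE 0.43, limma adjusted p = 0.0222). Sgk1, a kinase induced by serum and glucocorticoids, with chromosome 13 was at 0 in ESC and at 12.6, 6.35, 5.49 and 5.79 in EpiLC (difference 2.66, SE 0.41, limma adjusted p = 0.0222). The kinase gene Tesk1 with chromosome 7 was at 0 in ESC and at 9.97, 2.86, 8.84 and 8.20 in EpiLC (difference 2.61, SE 0.43, limma adjusted p = 0.0282). In these 3, each line was at 0 in ESC and scored in EpiLC, at low levels that mostly lay near the threshold. Since every contact listed was called in at least 1 column, these 3 are listed only through their EpiLC scores. Their pattern is thus in part set by which contacts are listed.

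Gpr55, a lipid receptor gene, met Zfp617 in block 15 with scores of 0, 0, 3.30 and 3.10 in ESC and 9.94, 18.1, 24.9 and 10.0 in EpiLC (difference 2.42, SE 0.31, limma adjusted p = 0.0120). This contact too is listed only through its EpiLC scores, so its pattern is in part set by the listing. SNORA29.2, a small nucleolar RNA copy, with Ccdc162 rose from 0, 19.5, 17.4 and 2.85 to 41.1, 48.9, 39.3 and 24.2 (difference 1.97, limma adjusted p = 0.0459). Gm16180 with chr4:3249928-3251003 had a difference of 1.60 (SE 0.23, limma adjusted p = 0.0160). With the adjoining fragment chr4:3251004-3251463 the same bait had a difference of -1.43 and did not pass (limma adjusted p = 0.108). In all 6 contacts that passed and were separately higher in EpiLC, the EpiLC score was higher in 4 of 4 lines.

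The lectin gene Clec4g on chromosome 8, with the fragment chr4:3251004-3251463, fell by 2.15 asinh units, from 16.3, 14.6, 6.93 and 2.37 in ESC to 0, 1.80, 0 and 1.66 in EpiLC (limma adjusted p = 0.0455). The bait Insr with the same fragment went the other way, with a difference of 1.76, and did not pass (limma adjusted p = 0.0949). Gm12744 with Atf2 fell by 2.31, from 1.31, 21.6, 7.26 and 5.74 to 0.392, 0.632, 0 and 0 (limma adjusted p = 0.0459). Both were lower in 4 of 4 lines. Among the 12 other contacts past the test, 4 were baits of chromosome 4 with Matr3, and Wtap, a subunit of the RNA methyltransferase complex, met Ccdc162. For contacts with very high scores, such as the strongest of Gm16040 (difference -0.05, SE 2.92), the fitted error was too large for the test to show a change.

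**Figure D4:**
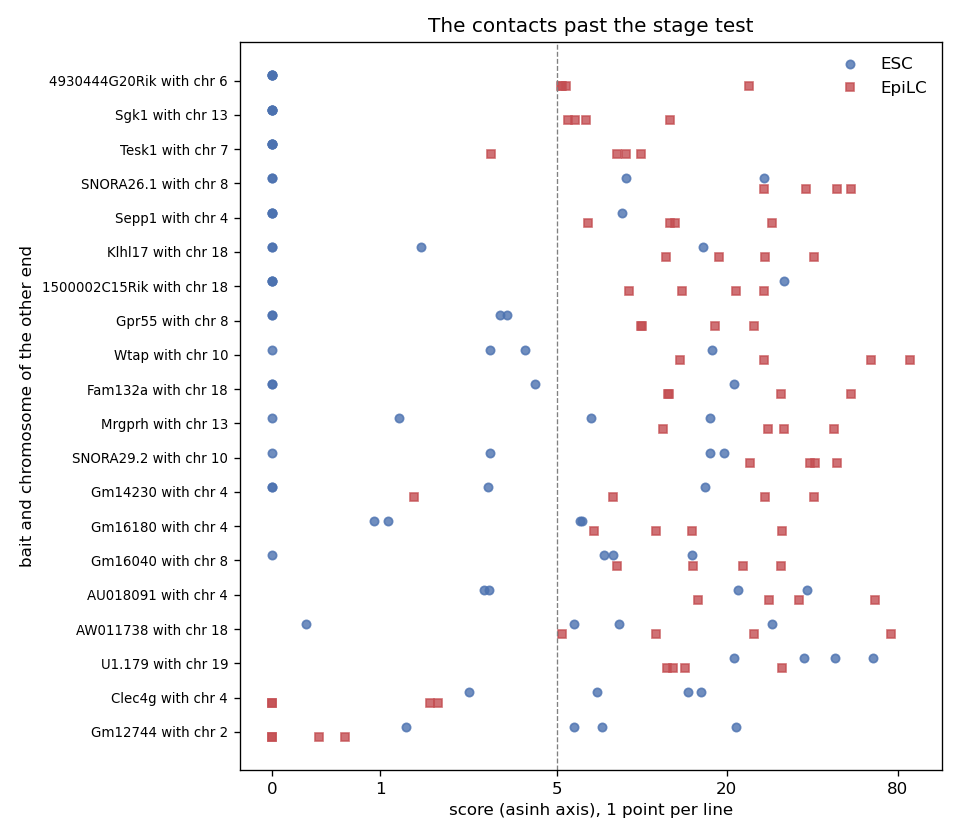
For each of the 20 contacts past the stage test, points give the scores of the 4 lines in ESC (circles) and EpiLC (squares) on an asinh axis, with the score of 5 dashed. The first 3 contacts from the top are at 0 in every ESC column, and the ranges of the stages overlap in 12 of the 20.

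Knock-out and wild type could be set side by side but not tested, since each has 1 column per stage. A contact was counted where 1 line scored 5 or more at both stages and the other was under 3, or had no score, at both. DNMT_KO over DNMT_WT gave 55 contacts (2.15%, against 0.204% of all contacts listed), and the reverse 13 (0.508%, against 0.183%). TET_KO over TET_WT gave 107 (4.18%, against 0.756%), and the reverse 101 (3.95%, against 0.498%). Many share a block, and are thus not separate cases: 39 of the 55, 8 of the 13, 71 of the 107 and 48 of the 101. Block 7 alone held 30 of the 107. The lower line had no score at either stage in 84 of the 107 and 62 of the 101 (background 0.104% and 0.173% of all contacts), and in 1 of the 55 and 0 of the 13 (background 0.00383% and 0.00268%). By the same count, lines of different origin were also apart: DNMT_KO over TET_KO gave 249 (9.73%, against 1.09% of all contacts), 198 of them in blocks, and TET_KO over DNMT_KO 79 (3.09%, against 0.9998%). DNMT_WT over TET_WT gave 58 (2.27%, against 0.355%) and TET_WT over DNMT_WT 97 (3.79%, against 0.553%).

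The taste receptor gene Tas1r3 with Gm33715 on chromosome 8 scored 14.9 in ESC and 21.4 in EpiLC of DNMT_KO and 0 in both DNMT_WT columns. Its scores were 20.1 and 18.3 in TET_WT and 0 and 14.0 in TET_KO. Its neighbours Tnfrsf18, a T cell receptor of the TNF family, and B3galt6, a sugar transferase gene, met the same fragment and separated the TET lines. Tnfrsf18 scored 15.7 and 19.6 in TET_WT and 0 and 0 in TET_KO. B3galt6 scored 18.8 and 23.4 in TET_WT and 0 and 0.435 in TET_KO. Other baits at this fragment did have calls in TET_KO. Of its 14 contacts (block 25), 9 and 8 were called in TET_WT ESC and EpiLC, and 4 and 5 in TET_KO. The bait of Gm11413 with chr7:24220246-24220922 scored 28.9 and 73.2 in DNMT_KO against 0 and 3.62 in DNMT_WT.

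Hjurp, which loads the centromeric histone variant, and Ugt1a1, a bilirubin-conjugating enzyme gene, lie close together on chromosome 1. They and Heatr7b1 shared other ends on chromosomes 17, 3 and 10. Hjurp with chr10:113211613-113213951 scored 120 and 5.87 in DNMT_WT ESC and EpiLC and 0.163 and 0.298 in DNMT_KO, and 18.7 and 63.0 in TET_WT and 72.3 and 99.5 in TET_KO. Ugt1a1 with chr17:23518756-23521871 scored 30.7 and 29.8 in TET_KO and 0 in both TET_WT columns, and 18.6 and 0.0578 in DNMT_WT. Mrps35, a mitochondrial ribosome protein gene, with chromosome 10 scored 22.4 and 27.1 in DNMT_WT against 1.39 and 0 in DNMT_KO. DNMT_KO was thus the low line of its pair for Hjurp and Mrps35, and the high one for Tas1r3 and Gm11413. These are single contacts picked for large differences, and the blocks of Mrps35 and Tas1r3 did not separate the lines at both stages. Block 22, with Mrps35, had 6 and 11 of 16 contacts called in DNMT_WT ESC and EpiLC, and 12 and 9 in DNMT_KO. Block 25, with Tas1r3, had 0 and 11 of 14 called in DNMT_WT ESC and EpiLC, and 9 and 11 in DNMT_KO.

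Outside the blocks, 943 contacts remained and 19 of them were called in all 8 columns. The strongest joined U7.14, a copy of the small nuclear RNA that processes histone messages, to chr2:9258644-9260656, with 392, 558, 607 and 295 in ESC and 426, 410, 404 and 257 in EpiLC. Treml1, a platelet receptor gene, with chr11:19493588-19494302 scored 337, 153, 267 and 582 in ESC and 155, 119, 186 and 391 in EpiLC. In both contacts the stages overlapped.

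Gene families gave few contacts each. None involved a Hox gene, of 33 such baits in the table, or a naive pluripotency gene, of 21, where 5.09% of all baits had a contact and these genes made up 0.493% and 0.130% of cis contacts. Other developmental regulators that are Polycomb targets gave 27 contacts (1.06%, against 0.706% of cis contacts), 25 of them in blocks. Small RNA copies gave 170 (6.64%, against 8.13% of cis contacts), odorant receptors 55 (2.15%, against 2.73%) and microRNA genes 15 (0.586%, against 1.49%). The histone clusters gave 13 (0.508%, against 0.496%), all from Hist1h1t with a region of 2174 kb on chromosome 4. In that block no contact was called in DNMT_WT ESC or in TET_WT, 4 were called in DNMT_KO ESC, 8 in each DNMT line in EpiLC and 6 in TET_KO EpiLC. TET_WT had no score for any of the 13. The imprinted genes Usp29, Igf2r and Airn gave 4 contacts, and Usp29 with chr4:143976853-143978091 scored 39.5 and 9.47 in TET_WT ESC and EpiLC and had no score elsewhere.

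A captured promoter lay at both ends of 98 contacts, 27 of them from Gm11399 and 17 from Sfi1, and 9 pairs of promoters were listed from both ends. The 8 contacts with the mitochondrial genome came from neighbouring baits of chromosome 4 and had scores in the TET lines only. Gm13069, the strongest of them, scored 26.3 and 24.0 in TET_WT ESC and EpiLC and 1.10 and 7.03 in TET_KO.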

How the data were processed

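Promoter-capture Hi-C was made from 16 samples, 2 for each of 4 lines at 2 stages, per the labels. The submitters' processing notes name Trim Galore 0.6.5, cutadapt 2.3 and the build GRCm38. Not given in the sources used here: aligner, CHiCAGO version, and how 2 samples became 1 column. The deposited table holds a CHiCAGO score for each contact in 8 columns, 1 per line and stage, as the authors made it. The depth is unknown, so no counting interval is given.

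Members were the rows with different bait and other-end chromosomes after the exclusions above. The members and gene lists were chosen with earlier results of these data known. Called means a score of 5 or more, and a missing score is not called. Blocks were chains of at least 10 members with both ends within 2 Mb. Stages were compared by an exact permutation test of the counts and, for single contacts, by limma 3.58.1 (R 4.3.3) with trend on asinh scores, adjusted by Benjamini-Hochberg over all contacts fitted. On simulated data, limma recovered 0 of 67 contacts given a difference of 1 asinh unit, 34 of 67 at 2 and 65 of 66 at 4. A contact that did not pass is therefore not shown to be unchanged. Properties of members and cis contacts were compared by exact sign-flip tests over columns. P-values over lines measure the spread between these 4 lines. Named contacts were the 10 with the highest mean, those past the stage test with separate stages, the 5 largest each way per knock-out, the leading baits, the blocks with their leading baits, and up to 4 per gene list. Others, such as those called in all 8 columns outside blocks and the mitochondrial contacts, were chosen after their values were seen. RefSeq gene names and promoters are of GRCm38.p6. The other thresholds, scalings and subsets tried are in the closing section. Contacts of chromosomes X and Y were not used here. A few named genes and their contacts are not reported here.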

Additional observations from a re-analysis of the deposited data

Results flagged for a closer look

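In 96 groups of 4 columns of 1 stage, 20 had a column far from the other 3 by Dixon's criterion. Chance passes it in about 1 of 20 groups only where the 4 values are independent and normally distributed. Most of the groups past it were counts of calls in blocks, and a contact is listed only if some column called it. A block called in only 1 column of a stage passes by construction. The count of 20 therefore cannot be set against that rate, and whether it is an excess was not tested. The columns of a block are not independent of each other, and none of the 20 gaps has a replicate check.

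Among ESC columns, DNMT_WT stood apart with 20 contacts called in block 3 (chromosomes 6 and 11, next lowest 54), 1 in block 14 (chromosomes 13 and 17, next 7), and 26, 21, 13 and 13 in blocks 11, 13, 27 and 29, where the other columns had 0. Its called members were also found in no other column in 35.8% of cases, against 20.3% in the next column. DNMT_KO stood apart with 138 contacts in block 1 (chromosomes 1 and 4, next 7), 27 in block 8 (chromosomes 11 and 14, next 3), 7 in block 26 (next 1) and 4 in block 28 (next 0). TET_WT stood apart with 10 in block 19 and 4 in block 35 (next 0 in each), and TET_KO with 10 in block 40 (next 0). TET_WT also had a median other-end fragment of 1783 bases, where the other ESC columns were tied at 1756, so a small gap passed.

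Among EpiLC columns, TET_WT stood apart with 0 contacts called in block 9 (chromosomes 10 and 16, next lowest 24), 15 in block 10 (chromosomes 4 and 8, next 10), and 14 and 12 in blocks 19 and 35, where the others had 0. TET_KO stood apart with 9 in block 40 (next 0).

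The number of members called moved in opposite directions at the 2 stages in both pairs of lines. DNMT_KO minus DNMT_WT was 467 in ESC and -198 in EpiLC, and TET_KO minus TET_WT was 45 in ESC and -73 in EpiLC. As a percent of all contacts called in the column, only the DNMT pair changed direction. DNMT_KO and DNMT_WT were at 1.10% and 0.516% in ESC and at 1.03% and 1.28% in EpiLC. TET_KO and TET_WT were at 0.669% and 0.671% in ESC and at 0.594% and 0.715% in EpiLC. The difference between stages was not tested, since each line has 1 column per stage.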

How the results depend on the processing

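No paired analysis was possible because the score columns carry no replicate numbers. The columns do pair by line: swapping the stage within lines gave p = 0.375 for the same 185.25 (exact, smallest possible 0.125), and the single-contact test has the line as a block. The stage difference in called members, 185.25 in favour of EpiLC, stayed positive under all other settings run and turned to -1.5 outside the blocks. No setting passed the threshold, but leaving out a line (smallest possible p 0.1), the swap within lines, and the wild-type lines alone (difference 381, smallest possible p 0.333) could not pass it, so they say nothing of stability. Of single contacts, 20 passed the stage test. This count was 13 with no scaling, 12 with each column divided by its mean, 31 on log2(score + 1), 5 with no line block, 0 among contacts of 5 or more in at least 2 columns (limma; 124 with an unadjusted p under 0.05; 3 higher and 1 lower of all 140060 fitted passed), 0 with missing scores kept (408 with an unadjusted p under 0.05; 0 of all 256743 fitted passed), and 0 to 2 with 1 line left out. Each of the 8 named contacts passed in 1 to 4 of 10 other settings and kept its direction in all 10. The share of contacts called in no other column turned to -12.9 points against cis contacts over 1 Mb (exact p = 0.03125) and was 4.03 points at a score of 10 or more (exact p = 0.21875). The other properties kept their direction and passed at scores of 3 and 10, against cis contacts over 1 Mb and outside the blocks. Chaining within 1 Mb or 5 Mb put 1604 or 1636 members in blocks. The causes of these changes were not tested. The limits are 1 column per group, 1 line per genotype, unknown depth, and scores missing by a rule that is not given. Since 75.4% of members lack a score somewhere, the stage test covers 630 of 2559.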
